A study of Mus musculus with 10 samples.

Results

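Pericytes are the mural cells that wrap capillaries, and 9 genes often used to mark them were followed here: Pdgfrb, Rgs5, Rgs4, Cspg4, Mcam, Notch3, Kcnj8, Abcc9 and Anpep. They were chosen by name, with earlier results of these data known, and none of them encodes a part of the contractile apparatus. These 9 were taken from 32903 genes with a transcript in the deposited table, and all 9 passed the low-count filter that left 14597 genes for testing. RNA was sequenced from male wild-type C57 BL6 mouse preadipocytes of inguinal subcutaneous fat (iSAT), the precursors of white fat cells. The carrier DMSO alone went to the cells behind 5 libraries. Bisphenol S (BPS, an analogue of bisphenol A used in plastics) at 2.5 µM in DMSO went to those behind the other 5. Both groups share genotype, sex and tissue, and differ by BPS. The labels do not say how old the mice were, how long the cells were exposed or if each replicate had its own animal or dish, so p-values measure the spread between these libraries, which may be technical.

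As background, pericytes are recruited to endothelial tubes by platelet-derived growth factor B, which endothelium releases and the receptor PDGFRB on pericytes binds. Notch3 receives signals from Notch ligands on neighbouring cells and maintains mural cell identity. Kcnj8 and Abcc9 encode the pore and the regulatory subunit of the vascular ATP-sensitive potassium channel, and Rgs4 and Rgs5 encode proteins that shorten signalling through G-protein-coupled receptors. Most of these genes are not exclusive to pericytes: fat cell precursors carry Pdgfrb and Anpep, and endothelium and smooth muscle carry Mcam.

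Of the 9 genes, 2 were higher under BPS and 0 were lower, and the same 2 had an unadjusted p under 0.05. The share of all tested genes with an unadjusted p under 0.05 was not counted. Such p were common: an unadjusted edgeR p of 0.0459, that of Hey1, became 0.256 when adjusted. The unadjusted count is therefore not read as a result about the 9 genes. Mcam rose by 28.8% and Cspg4 by 11.4%, the other 7 did not pass the test, and Pdgfrb, by far the most abundant, had a narrow interval around no change. These counts come from one edgeR quasi-likelihood fit over all tested genes, called at a Benjamini-Hochberg adjusted p under 0.05. Of all tested genes 4.88% were called, 3.06% as higher and 1.82% as lower. With 9 genes the share called rests on 2 of them, and the call of Cspg4 lay at the threshold. The DESeq2 Wald test called both and limma-voom called Mcam alone. The median log2 fold change of the 9 was 0.047, against 0.00039 over all tested genes, and 7 of the 9 estimates were above 0. The 5 BPS values of Mcam and of Cspg4 did not overlap the 5 DMSO values, which held for 6.9% of all tested genes in either direction.

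**Figure D1:**
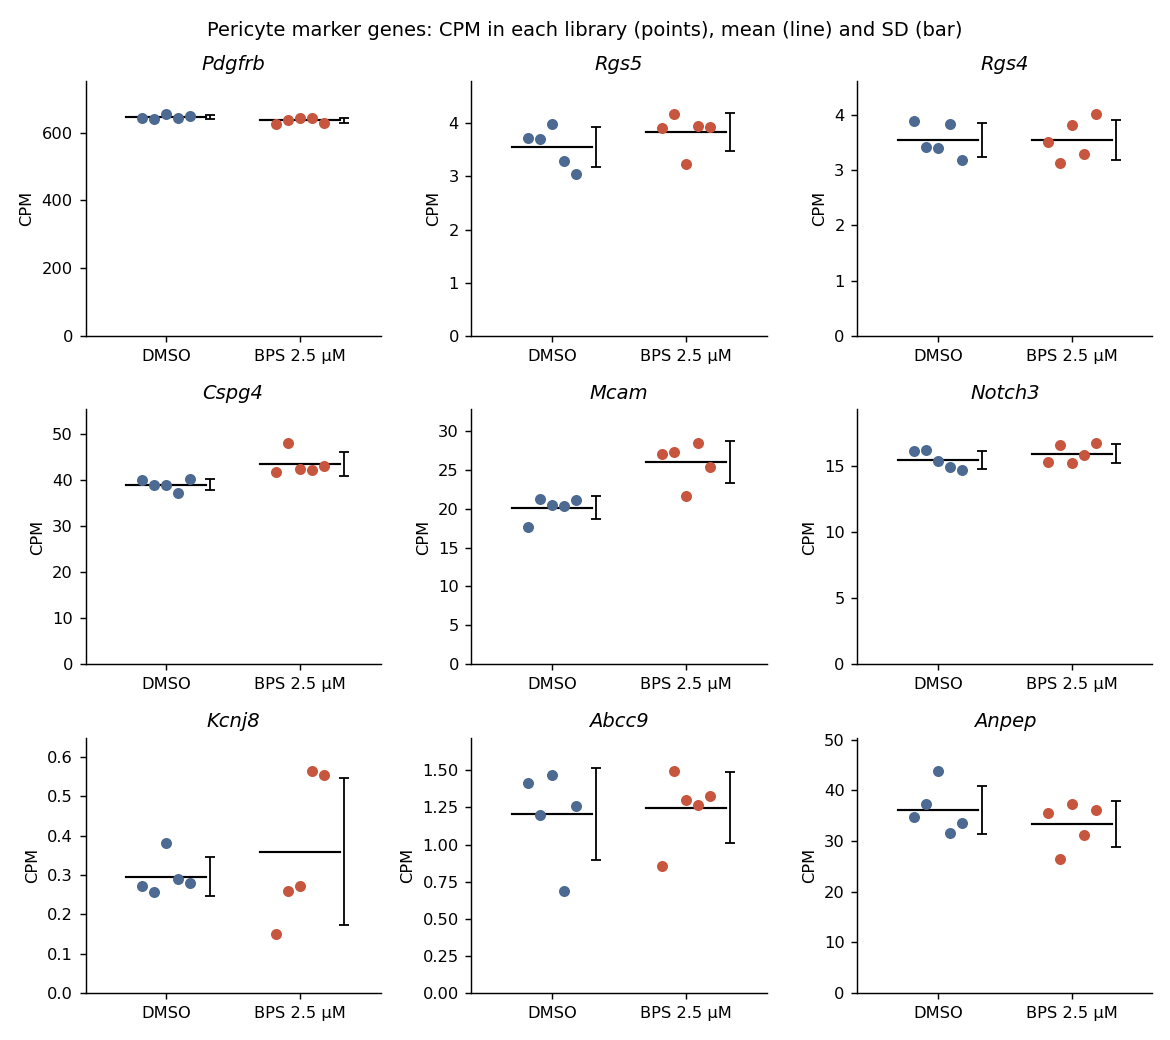
CPM (the gene's counts scaled to a fixed library total, with TMM factors) of the 9 pericyte marker genes, with 1 point per library, a line at the mean of 5 libraries and a bar of 1 SD beside it. Every axis starts at 0. The 5 BPS libraries lie above all 5 DMSO libraries for Mcam and Cspg4, and the groups overlap for the other 7 genes.

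Estimated counts summed to between 38200573 and 42314795 in DMSO and between 37920689 and 42717227 in BPS, a difference within the spread (exact two-sided permutation test, p = 0.452). Levels in a list of 12 preadipocyte and fibroblast genes were mixed. Pdgfra was high (904 ± 14.4 CPM in DMSO, SD, n = 5). Pparg, Dpp4 and Pi16 averaged 8.755, 2.452 and 2.024 CPM in DMSO, and every other gene of that list was higher. Whether these levels set preadipocytes apart from other fibroblasts was not tested. Summed CPM was 42 to 50.1 for 14 endothelial and 13.6 to 21.7 for 11 macrophage markers in DMSO. Under BPS these sums were 41.3 to 49.7 and 14.7 to 24.7 CPM. Pecam1 and Cdh5, which define endothelium, were low but present (2.24 ± 0.833 and 4.22 ± 0.81 CPM in DMSO), and Ptprc, the pan-leukocyte gene, had 3 to 18 counts per library. Library numbers in the labels ran through DMSO before BPS, so a batch that followed that order cannot be told apart from the treatment.

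The sequences just upstream of the genes that rose are shown first, because Mcam and Cspg4 are the members whose groups separated. Both lie on chromosome 9 of GRCm38.p6 (RefSeq sequences), on the plus strand. Each stretch begins 250 bases before the RefSeq start and ends where the first GENCODE vM21 coding transcript begins. The Mcam stretch is chr9:44134408-44134561 and the Cspg4 stretch is chr9:56864854-56865032. Capitals mark the SP1 core GGGCGG on either strand, the GC box found in many promoters.
Mcam: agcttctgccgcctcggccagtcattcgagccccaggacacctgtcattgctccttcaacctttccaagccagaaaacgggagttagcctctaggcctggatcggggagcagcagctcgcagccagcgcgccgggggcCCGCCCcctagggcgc
Cspg4: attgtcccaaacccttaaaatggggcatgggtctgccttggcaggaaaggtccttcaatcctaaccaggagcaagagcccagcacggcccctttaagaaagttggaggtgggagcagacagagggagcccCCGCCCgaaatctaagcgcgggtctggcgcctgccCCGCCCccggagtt
The stretch held 1 match in Mcam and 2 in Cspg4. Over the full 250 bases before the RefSeq start, Mcam held 5 matches and Cspg4 held 2, and 5 of the 8 members with a window examined held at least 1. Of all 32851 RefSeq windows of that length 32.7% held one. GC content of the full window was 73.6% for Mcam and 60.4% for Cspg4, against a median of 52.4%. The letters GCGTG, the core bound by the aryl hydrocarbon receptor, were in 4 of the 8 windows (Rgs4, Notch3, Kcnj8 and Anpep, not Mcam or Cspg4) and in 28.2% of all windows. The Notch effector core TGGGAA was in 1 of the 8 (Abcc9) and in 21.6% of all windows. The letters TGACGTCA, the cAMP response element, occurred in the Mcam window alone among the 8, outside the stretch printed, and in 1.55% of all windows. The motifs were searched on both strands, the last one was added after the Mcam sequence had been seen, and a match describes letters, not a bound site.

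Among the 2 genes that passed the test Mcam had the larger change. Mcam encodes CD146, an immunoglobulin-family adhesion molecule of pericytes, smooth muscle and endothelium. In DMSO replicates 1 to 5 it stood at 17.6, 21.2, 20.4, 20.3 and 21.1 CPM, and in BPS replicates 1 to 5 at 27.1, 27.2, 21.6, 28.4 and 25.3 CPM. BPS replicate 3 was the lowest treated library and lay just above the highest DMSO library, while the other 4 were clear of it. The log2 fold change was 0.36 (SE 0.073, 95% interval 0.21 to 0.52, adjusted p = 0.0158), on 648 to 829 counts in DMSO and 796 to 1079 in BPS. The call held in all 21 gene-level alternatives, with log2 fold changes of 0.32 to 0.42 and adjusted p of 0.000314 to 0.0474. It did not hold when 37588 transcripts were tested singly: the 1 Mcam transcript with counts had a log2 fold change of 0.37 (SE 0.081) and an adjusted p of 0.16.

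Cspg4 encodes NG2, a transmembrane proteoglycan of pericytes and of several progenitor cells. Its 5 DMSO libraries held 40.1, 38.9, 39.0, 37.2 and 40.2 CPM, and its 5 BPS libraries held 41.7, 48.1, 42.5, 42.2 and 43.1 CPM. The treated libraries were all above the controls, and BPS replicate 2 was well above the other 4. The log2 fold change was 0.16 (SE 0.04, 95% interval 0.069 to 0.24, adjusted p = 0.0467), on 1412 to 1676 counts per library. This call was kept in 6 of 21 gene-level alternatives, with adjusted p of 0.0155 to 0.104. The direction was the same in all 21, with log2 fold changes of 0.12 to 0.17. It was lost on leaving out any DMSO library, BPS replicate 3, BPS replicate 4 or BPS replicate 5, and kept without BPS replicate 1 or BPS replicate 2 (adjusted p = 0.0411 and 0.0478).

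**Figure D2:**
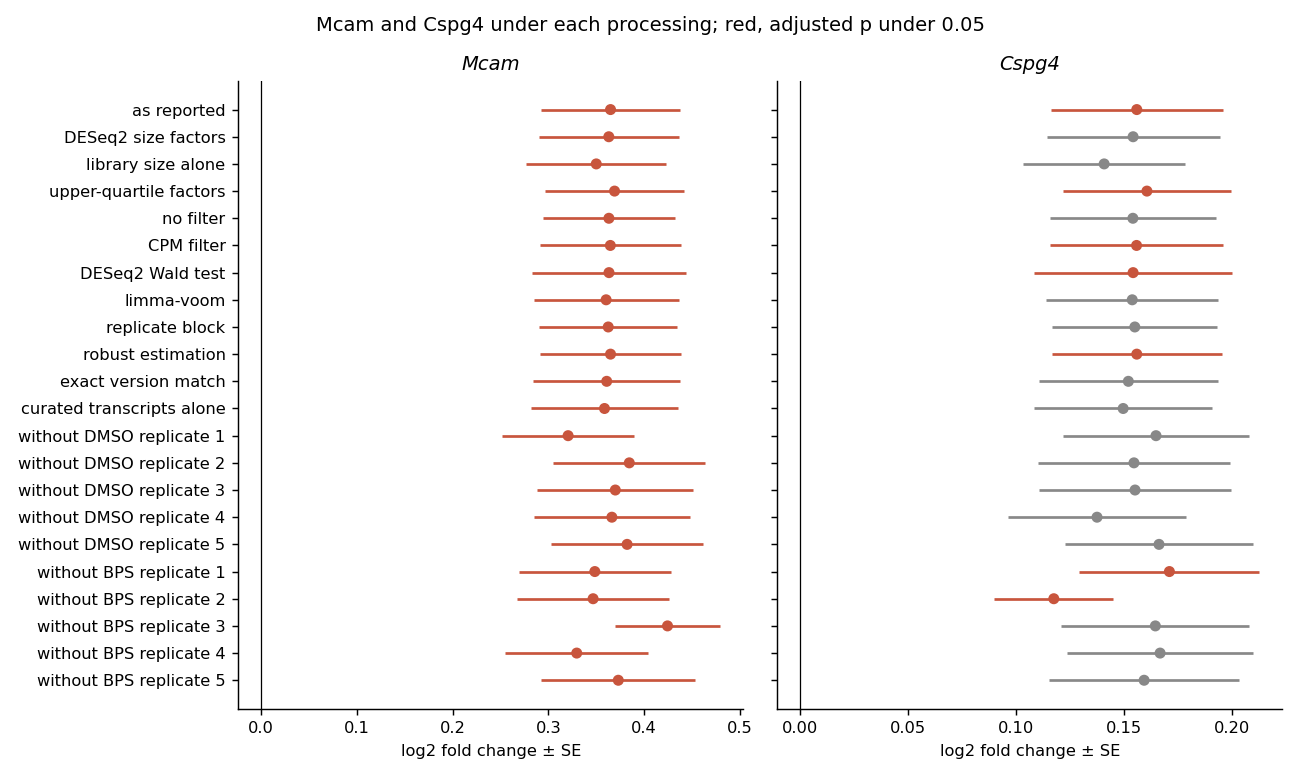
Log2 fold change of Mcam and Cspg4 (horizontal axis, with SE bars) in the fit as reported and in 21 gene-level alternatives (vertical axis), red where the adjusted p was under 0.05. Mcam is red throughout, between 0.32 and 0.42, and Cspg4 is red in the reported fit and in 6 alternatives.

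Anpep encodes aminopeptidase N (CD13), a surface peptidase of pericytes that fibroblasts also carry. Its DMSO libraries ranged from 31.6 to 43.8 CPM around a median of 34.7, and its BPS libraries from 26.4 to 37.3 around 35.6. The groups overlapped widely, with DMSO replicate 3 the highest and BPS replicate 2 the lowest of the 10. Its log2 fold change was -0.12 (SE 0.1, 95% interval -0.34 to 0.1, adjusted p = 0.597). Anpep varied more than its counts alone would give: the coefficient of variation was 13.1% in DMSO and 13.5% in BPS, against 2.77% from counting. The called genes also exceeded counting, Mcam with 7.23% and 10.3% against 3.42%, and Cspg4 with 3.11% and 6.03% against 2.55%. Changes anywhere inside that interval are compatible with the values of Anpep.

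Neither receptor passed the test. Pdgfrb, the receptor tyrosine kinase for platelet-derived growth factors B and D, stood at 645, 639, 654, 643 and 648 CPM in DMSO and at 627, 639, 645, 643 and 630 CPM in BPS. The ranges overlapped, although no BPS library exceeded the DMSO mean of 646 CPM. That gave a log2 fold change of -0.021 (SE 0.013, 95% interval -0.05 to 0.008, adjusted p = 0.447). With 22233 to 25813 counts per library Pdgfrb was the most precisely measured member, at a coefficient of variation of 0.886% in DMSO and 1.27% in BPS.

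Notch3 encodes the Notch receptor of mural cells. Its libraries held 14.6 to 16.2 CPM in DMSO and 15.2 to 16.7 CPM in BPS, and the groups overlapped. The log2 fold change was 0.044 (SE 0.044, 95% interval -0.05 to 0.14, adjusted p = 0.661). The sum over transcripts was steadier than its parts. The curated transcript NM_008716.2 took 57.9 ± 6.41% of the Notch3 counts in DMSO and 69.5 ± 19.3% in BPS (SD, n = 5 each), and the predicted transcript XM_017317293.1 took the rest. Its share ranged from 42% in BPS replicate 1 to 88.3% in BPS replicate 2, with DMSO between 50.8% and 65.8%. The difference in share was within that spread (exact two-sided permutation test, p = 0.254, and 0.508 adjusted over 2 such tests; 0.00794 is the smallest p that 5 against 5 allow). The second such test, on the main Pdgfrb transcript (68.4 ± 1.39% and 68.8 ± 4.16%), gave p = 0.833 by the same exact permutation test. These 2 tests were added after the transcript values had been seen.

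Because of this division the Notch3 value depended on which transcripts entered the sum. With curated transcripts alone the log2 fold change was 0.3 (adjusted p = 0.544), and with exact version matching, which dropped the curated one, it was -0.42 (adjusted p = 0.686). Over the gene-level alternatives its adjusted p ran from 0.544 to 0.831.

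**Figure D3:**
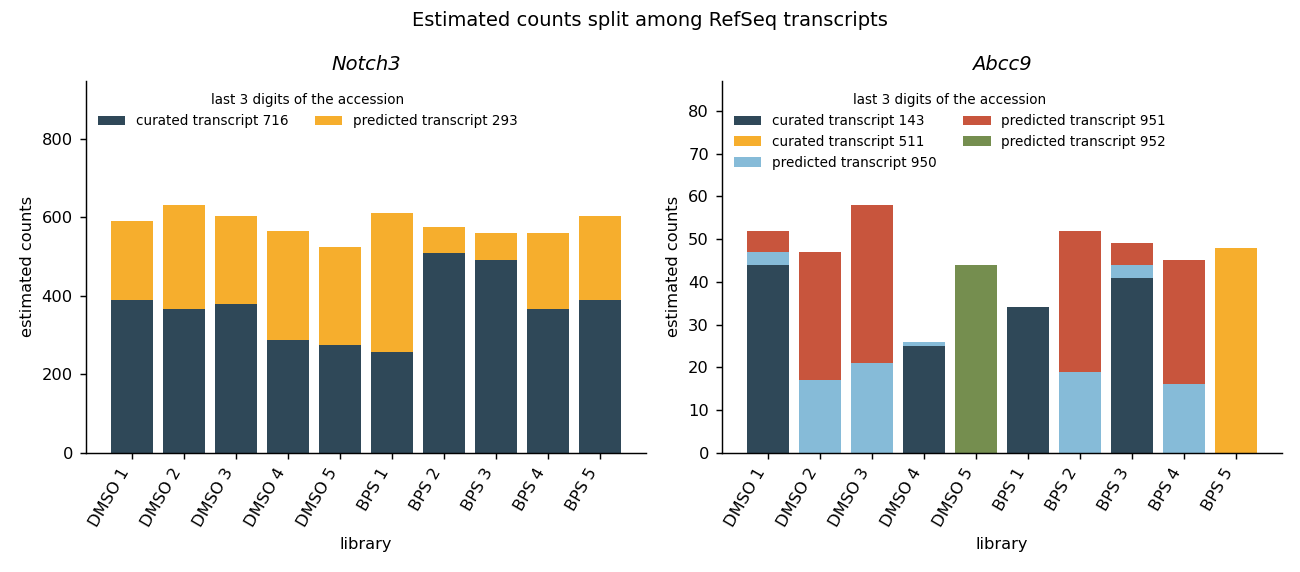
Estimated counts (vertical axis) of the RefSeq transcripts of Notch3 (left) and Abcc9 (right), stacked for each of the 10 libraries. The Notch3 total stays between 524 and 632 while its division shifts, and almost all Abcc9 counts move from transcript to transcript between libraries.

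The channel genes Kcnj8 and Abcc9, direct neighbours on chromosome 6 with no other coding gene between them in the RefSeq table, were the lowest of the 9. Kcnj8, the pore Kir6.1, had 10 to 15 counts in DMSO and 6 to 20 in BPS, or 0.256 to 0.38 and 0.151 to 0.564 CPM. BPS replicates 4 and 5 were the highest and BPS replicate 1 the lowest of all. The log2 fold change of 0.27 had an SE of 0.34 and a 95% interval of -0.48 to 1 (adjusted p = 0.746). At this depth changes anywhere inside that interval are compatible with the values of Kcnj8. Abcc9, the sulfonylurea receptor SUR2, had 26 to 58 counts in DMSO and 34 to 52 in BPS, or 0.684 to 1.47 and 0.853 to 1.49 CPM. Its groups overlapped, and the log2 fold change was 0.047 (SE 0.21, 95% interval -0.4 to 0.5, adjusted p = 0.936).

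Counts of Abcc9 moved between its transcripts from library to library. In BPS replicate 5, 48 counts went to NM_011511.2, which had 0 in the other 9 libraries, and in DMSO replicate 5, 44 of 45 counts went to XM_006506952.2 (counts rounded per transcript). A reading of Abcc9 isoforms was therefore not possible at this depth. Summed over curated transcripts alone the log2 fold change was 0.83 (SE 1.4, adjusted p = 0.854, range 0.735 to 0.977 over the alternatives). Without DMSO replicate 4 or BPS replicate 2 the Abcc9 sum gave -0.1 and -0.025, so the sign of its estimate is not fixed. The pancreatic counterparts of this channel, Kcnj11 and Abcc8, had 0 counts in all 10 libraries.

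Rgs5 and Rgs4, neighbours on chromosome 1 with no coding gene between them, encode GTPase-activating proteins that switch off G proteins, and Rgs5 is among the most used pericyte markers. Rgs5 held 3.73, 3.71, 3.98, 3.29 and 3.04 CPM in DMSO and 3.91, 4.16, 3.22, 3.95 and 3.93 CPM in BPS. Apart from BPS replicate 3, the treated libraries lay near the top of the control range, and the groups overlapped. The log2 fold change was 0.11 (SE 0.095, 95% interval -0.097 to 0.32, adjusted p = 0.6). Rgs4 held 3.18 to 3.89 CPM in DMSO and 3.13 to 4.01 CPM in BPS, with a log2 fold change of 0.0028 (SE 0.091, 95% interval -0.19 to 0.2, adjusted p = 0.991). Both had 109 to 157 counts per library, for which counting alone gives a coefficient of variation of 8.53% and 8.69%. Their measured coefficients of variation, 10.6% and 8.62% in DMSO and 9.31% and 10.2% in BPS, were close to that.

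**Figure D4:**
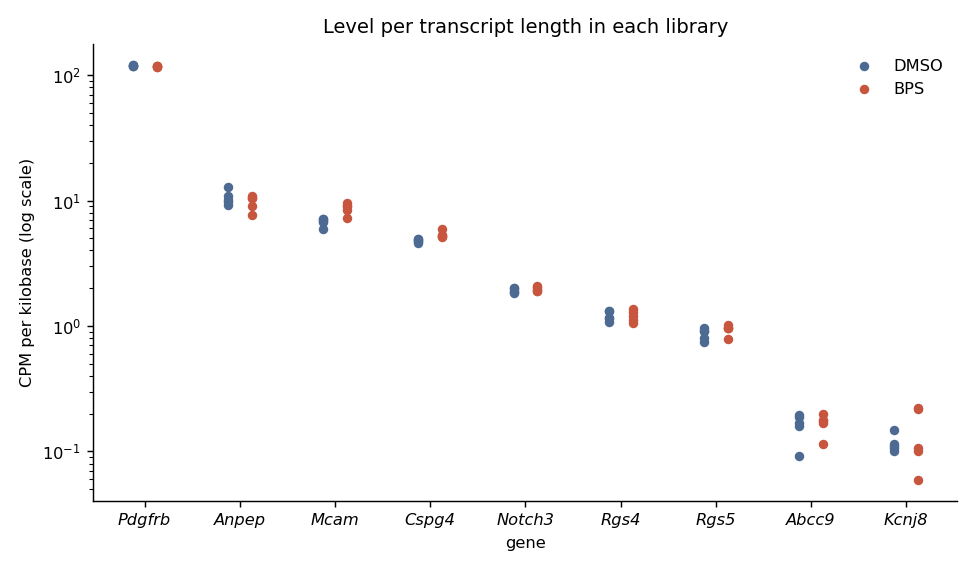
CPM per kilobase of transcript (vertical axis, log scale) of each pericyte marker gene (horizontal axis), with 1 point per library, DMSO in blue and BPS in red. Pdgfrb stands apart at the top and Abcc9 and Kcnj8 at the bottom, and within each gene the groups lie close together.

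Levels can be set beside each other per kilobase, taking the longest GENCODE transcript paired with a curated accession of each gene as its length, which is approximate where several transcripts exist. Over the 10 libraries Pdgfrb averaged 119 CPM per kilobase (116 to 121). Anpep (10.2, range 7.72 to 12.8), Mcam (7.7, range 5.9 to 9.52) and Cspg4 (5.09, range 4.58 to 5.93) followed. The ranges of Anpep and Mcam overlapped widely and those of Mcam and Cspg4 barely, while Anpep lay above Cspg4 throughout. Overlap of ranges over the 10 libraries does not give the order within a library. Notch3 stood at 1.95, Rgs4 at 1.21 and Rgs5 at 0.902 CPM per kilobase on average. The ranges of Rgs4 (1.07 to 1.37) and Rgs5 (0.743 to 1.02) did not overlap, and those of Abcc9 (mean 0.164) and Kcnj8 (mean 0.129) overlapped. The level of Pdgfrb, which preadipocytes share with pericytes, was accompanied by at most 58 counts per library for either channel gene. The list of 32 other pericyte-enriched genes was likewise mixed in level: 10 averaged under 1 CPM over the 10 libraries, and the rest lay above. Atp13a5 had 0 counts in every library, Higd1b had 0 to 2 and Vtn 3 to 8, while Postn (2937 CPM in DMSO), the basement membrane gene Nid1 (2189 CPM) and the stromal surface gene Cd248 (525 CPM) were abundant. Of these 6 genes, all but Postn were named after their values were seen, and what share of the cells, if any, were pericytes was not tested.

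**Figure D5:**
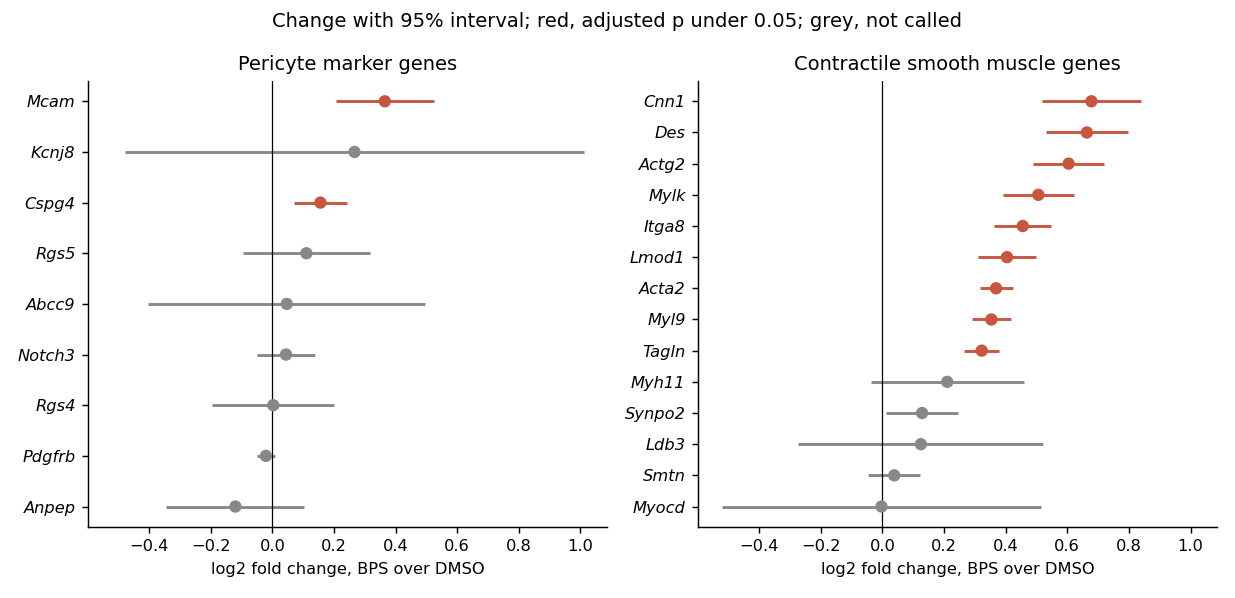
Log2 fold change of BPS over DMSO (horizontal axis) with its 95% interval for the 9 pericyte marker genes (left) and 14 contractile smooth muscle genes (right), red where the adjusted p was under 0.05. Mcam and Cspg4 are red on the left, and 9 of 14 genes are red on the right.

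Contractile smooth muscle genes were called more often in these libraries, and which cells carried them was not tested. Of 14 smooth muscle genes 9 rose and 0 fell, with a median log2 fold change of 0.36 and summed CPM of 1979 to 2111 in DMSO against 2553 to 2702 in BPS. Acta2, smooth muscle actin, went from 1037 ± 29.3 to 1339 ± 41 CPM (log2 fold change 0.37, SE 0.025, adjusted p = 1.48e-05), a size like that of Mcam. Tagln, Myl9, Actg2, Des and Cnn1 rose by 0.32, 0.35, 0.6, 0.66 and 0.68 on the log2 scale. Myh11, the myosin of mature smooth muscle, did not pass the test (0.21, SE 0.11, adjusted p = 0.358). Whether the 2 groups of genes differ in their share of calls was not tested. Of 13 endothelial markers tested 0 were called by edgeR (lowest adjusted p = 0.301) and 0 had an unadjusted p under 0.05, and the DESeq2 Wald test and limma-voom also called 0. Most endothelial markers were low, with 8 of the 14 averaging under 1 CPM. The SE was 0.24 for Pecam1 and 0.32 for Cldn5, so a change as large as that of Mcam could go uncalled in such genes. The part of either list in the Mcam value was not tested, and in bulk RNA more cells of a type and more RNA per cell cannot be told apart.

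Genes that act with the members, their family relatives and other pericyte-enriched genes came from lists of names, 97 genes in all of which 77 were tested. Of these 9 rose and 0 fell, 11.7% of those tested, against 4.88% of all tested genes (3.06% higher and 1.82% lower). Their median log2 fold change was 0.018. Whether the shares differ was not tested. Among 7 genes of the platelet-derived growth factor family 2 rose. Pdgfc, a ligand of PDGFRA, went from 24.8 ± 0.816 to 28.4 ± 1.33 CPM (log2 fold change 0.2, SE 0.037, adjusted p = 0.0118), and Pdgfa, also a PDGFRA ligand, from 19.2 ± 0.563 to 21.5 ± 0.659 CPM (0.16, SE 0.033, adjusted p = 0.017). Pdgfb, a ligand of Pdgfrb, had 14 to 33 counts per library and gave -0.17 (SE 0.24, adjusted p = 0.784). Pdgfd, also a Pdgfrb ligand and named after its values were seen, averaged 8.61 CPM in DMSO and 9.18 in BPS. It gave 0.092 (SE 0.13, adjusted p = 0.771). The sister receptor Pdgfra gave -0.066 (SE 0.019, adjusted p = 0.0777), which passed the threshold with library size alone (adjusted p = 0.0247), with the DESeq2 Wald test (adjusted p = 0.0155) and without BPS replicate 5 (adjusted p = 0.0483), in a range of 0.0155 to 0.237 over the alternatives.

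Of 21 Notch pathway genes tested beside Notch3, 0 rose and 0 fell by edgeR, and 4 had an unadjusted p under 0.05. Hey1 was among these 4. Its unadjusted edgeR p of 0.0459 became 0.256 when adjusted, so such p were common over all tested genes. The lowest adjusted p was 0.0696, that of Adam17, a protease that sheds surface proteins (log2 fold change -0.082, SE 0.023), a gene named after its value was seen. The DESeq2 Wald test called Adam17 alone in this list, as lower, and limma-voom called 0. Jag1, a Notch ligand, gave 0.12 (SE 0.079, adjusted p = 0.446). The target genes Hes1, Hey1 and Heyl gave 0.023 (SE 0.022), 0.44 (SE 0.19) and -0.03 (SE 0.2), with adjusted p of 0.642, 0.256 and 0.961. Hey1 had only 12 to 23 counts per library, and Hey2, with 2 to 12, was not tested.

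Of 8 further members of the R4 family of RGS genes, to which Rgs4 and Rgs5 belong, 4 were tested and 2 rose. Rgs16 went from 26.2 ± 1.96 to 31.9 ± 1.93 CPM (log2 fold change 0.28, SE 0.055, adjusted p = 0.0137), and Rgs3 from 47.8 ± 1.04 to 52.3 ± 1.66 CPM (0.13, SE 0.027, adjusted p = 0.0167). Rgs2 gave 0.035 (SE 0.081, adjusted p = 0.87). The call of Rgs3 was lost with curated transcripts alone, where its log2 fold change was 0.034 (adjusted p = 0.945, range 0.00249 to 0.957 over the alternatives). How its counts divided between curated and predicted transcripts was not examined. The difference between Rgs16 or Rgs3 and the members Rgs4 and Rgs5 was not tested.

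Of 24 other pericyte-enriched genes tested, 3 rose and 0 fell. Foxs1, a forkhead factor of mural cells, went from 5.8 ± 0.209 to 7.44 ± 0.642 CPM (log2 fold change 0.36, SE 0.066, adjusted p = 0.0101), close to the value of Mcam. Postn, a matricellular protein, gave 0.15 (SE 0.025, adjusted p = 0.00553), and Olfml2b, a secreted matrix protein, gave 0.11 (SE 0.019, adjusted p = 0.00941). Among 14 genes of the angiopoietin, sphingosine and TGF-beta axis, Acvrl1, a TGF-beta family receptor, rose by 0.1 (SE 0.023, adjusted p = 0.0275). Among 7 binding partners of NG2 and CD146, Itgb1, the integrin beta-1 chain, rose by 0.079 (SE 0.016, adjusted p = 0.017). The rises of Pdgfc, Pdgfa and Acvrl1 did not pass with curated transcripts alone (adjusted p = 0.107, 0.43 and 0.0627). The call of Acvrl1 was also lost without any 1 of the DMSO libraries and without BPS replicate 3, with adjusted p of 0.0513 to 0.0665.

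The 3 genes whose pattern over the 10 libraries was most like that of Mcam were Cd59a, Dusp8 and Ier2. Likeness was the root mean square difference of log2 CPM after centring each gene, which was 0.081, 0.098 and 0.099 for these 3 against a median of 0.23. The comparison took in 12461 genes averaging 1 CPM or more. Cd59a, a complement inhibitor on the cell surface, averaged 9.59 CPM in DMSO and 12.1 in BPS. Dusp8, a phosphatase of MAP kinases, averaged 1.08 and 1.51 CPM, and Ier2, an immediate early gene, 25.3 and 33.7 CPM. These values describe the pattern and carry no test, since the comparison of Mcam itself is part of the measure.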

How the data were processed

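The deposited table held estimated counts per RefSeq transcript made by the authors with kallisto 0.42.4, per the submitters' processing notes; index, genome build and strand setting are not given in the sources used here. Columns were matched to samples by library code. Accessions without version were matched to RefSeq genes (GRCm38.p6, names only), which covered 93.1% of counts, and curated transcripts held 78.7%. Estimated counts were summed per gene and rounded. edgeR 4.0.16 (R 4.3.3) filtered genes (filterByExpr), scaled by TMM (factors 0.9854 to 1.008) and applied the quasi-likelihood test with treatment as the only term. Adjusted p are Benjamini-Hochberg values over 14597 genes. SEs are the fitted change over the square root of F. Code was tested on simulated data.

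The members, lists and rule for naming genes (all members, up to 5 called genes per list, and 19 fixed names) were chosen with earlier results of these data known. The promoter motifs and the transcript shares were added later. Alternatives were other scalings, filters, tests (DESeq2 1.42.0, limma 3.58.1), accession matching, curated transcripts, transcripts unsummed, robust estimation, a replicate block and leaving out each library. The promoter of Pdgfrb is not analysed here. Same-numbered libraries deviated together by r of -0.078 to 0.1 across genes. Libraries of different number were not compared, so these values do not decide whether the numbers paired libraries. Depth was 37920689 to 42717227 counts per library. Intervals cover 95%.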

Additional observations from a re-analysis of the deposited data

Results flagged for a closer look

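A library stood apart from its group by Dixon's criterion at the 95% level in 9 of 78 groups of 5 values, where chance gives about 3.9, and 4 of these concern pericyte markers. Mcam was low in DMSO replicate 1 (17.63 CPM, the others 20.27 to 21.2). Without that library its log2 fold change was 0.32 (adjusted p = 0.0329, range over gene-level alternatives 0.000314 to 0.0474). Cspg4 was high in BPS replicate 2 (48.14 CPM, the others 41.73 to 43.09), and without it the log2 fold change was 0.12 (adjusted p = 0.0478, range 0.0155 to 0.104). Rgs5 was low in BPS replicate 3 (3.223 CPM, the others 3.912 to 4.165) and Kcnj8 was high in DMSO replicate 3 (0.3803 CPM on 15 counts, the others 0.2558 to 0.2896).

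The other 5 concern genes named for comparison. They were Itgb1 in BPS replicate 3 (1658 CPM, the others 1705 to 1715), Des in BPS replicate 1 (24.5 CPM, the others 19.69 to 20.72), Cd34 in DMSO replicate 3 (42.54 CPM, the others 45.57 to 46.51), Hey2 in BPS replicate 5 (0.3321 CPM, the others 0.1149 to 0.1691) and Rgs2 in BPS replicate 2 (4.194 CPM, the others 5.116 to 5.44). What set these values apart was not tested.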

How the results depend on the processing

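Of the 9 pericyte markers 2 were called, and 1 (Mcam) with DESeq2 size factors, library size alone, no filter, limma-voom, the replicate block, exact version matching and curated transcripts alone, and 0 when transcripts were tested singly. Leaving out single libraries gave 1 to 2. Over all genes the count of 712 (447 higher, 265 lower) became 374 with the replicate block, 328 with exact version matching, 311 with curated transcripts and 126 with single transcripts, and 449 to 774 without single libraries. It was 952 with the DESeq2 Wald test. It fell by over 1.5 times when DMSO replicate 2 (449), or BPS replicates 2 (462), 3 (465) or 4 (462), were left out singly. The split was 334 higher and 394 lower with library size alone. In the lists of partner, family and other pericyte-enriched genes 9 were called. This count became 14 with the DESeq2 Wald test, 3 with the block, 5 with exact matching and 5 with curated transcripts. It was 1 with single transcripts and 8 to 10 without single libraries. The block kept Mcam (adjusted p = 0.0474) and lost Cspg4 (0.0831), Pdgfa, Rgs16, Rgs3, Acvrl1, Foxs1, Itgb1 and Krt19. Directions near 0 reversed for Rgs4 with library size alone (-0.012), exact matching (-0.0015) and curated transcripts (-0.0039), for Notch3 with exact matching (-0.422), and for Heyl with limma-voom (0.0031). Leaving out single libraries gave log2 fold changes of -0.044 to 0.045 for Rgs4, -0.10 to 0.16 for Abcc9, -0.0499 to 0.26 for Pecam1, -0.2038 to 0.032 for Cdh5 and -0.13 to 0.17 for Heyl. The causes were not tested, except that fewer transcripts or genes enter the matching alternatives. Depth limits Kcnj8 and Abcc9 most. Kcnj8 could not be tested with the CPM filter, nor Anpep with exact matching.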

Other observations

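Of 12 preadipocyte and fibroblast genes 2 rose and 0 fell, with a median log2 fold change of 0.0035. Cd34, a sialomucin of progenitor and endothelial cells, went from 45.2 ± 1.56 to 54.9 ± 1.89 CPM (5 libraries each, ± SD), or 0.28 on the log2 scale (SE 0.031, edgeR adjusted p = 0.000428). Thy1, a glycoprotein of mesenchymal cells, went from 848 ± 7.33 to 968 ± 40.1 CPM (0.19, SE 0.025, edgeR adjusted p = 0.00129). Other surface markers in that list did not pass the test: Ly6a gave 0.0012, Pi16 0.12, Dpp4 -0.2 and Pdgfra -0.066, and the DESeq2 Wald test called Pdgfra as lower. Krt19, a keratin listed among 6 mesothelial genes, rose by 0.27 (SE 0.065, edgeR adjusted p = 0.0367), while Msln and Upk3b, which define that cell type, had 0 counts in every library. The call of Krt19 was lost without DMSO replicates 1, 3 or 4 or BPS replicates 2, 3 or 4, each left out singly, with adjusted p of 0.0641 to 0.0884.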
